A study of Danio rerio with 63 samples.

Results

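The Hox genes of zebrafish (Danio rerio) were taken as every row of the count table whose symbol has the form hox, a cluster letter from a to d, a paralog number and a final a or b. This gave 48 of the 32057 genes in the table. They lie in 7 clusters, with 6 members in hoxaa, 5 in hoxab, 11 in hoxba, 4 in hoxbb, 11 in hoxca, 4 in hoxcb and 7 in hoxda. Polyadenylated RNA was sequenced from blastoderm explants, pieces of blastula tissue cut from the embryo and cultured. In the ndr2 condition, each embryo had received 10 pg of RNA encoding ndr2, a Nodal ligand, when it was still a single cell. In the CA-acvr1b* condition it had received 0.5 pg of RNA for an always-active version of the Nodal receptor acvr1b, and in the uninjected condition nothing. Samples of every condition were taken at 4 hours post fertilization (hpf), the sphere stage, and at the 30%, 50%, 75% and 90% stages of epiboly, which fall at 4.7, 5.3, 8 and 9 hpf. The shield stage lies between them at 6 hpf, and the series ends with the 2-somite stage at 11 hpf. There were 3 biological replicates, A to C, in each of the 21 groups, which makes 63 libraries.

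Hox genes encode homeodomain transcription factors that give cells their position along the head-to-tail axis. They sit in clusters, and members with low paralog numbers are in general expressed further toward the head and those with high numbers further toward the tail. In the vertebrate gastrula and tailbud, Hox genes are switched on in sequence under Wnt, Fgf and retinoic acid signals, with Cdx proteins among their activators. The head's forebrain and midbrain form without Hox expression.

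Of the 48 members, 28 had enough reads to be tested and 20 did not. Library totals ran from 11756626 to 19650245 counts, with a median of 15620678. Levels are given as CPM, the library's counts divided by its TMM-scaled total and put on a common scale. A floor of 3 counts, about the 95% upper counting limit for a count of 0, was worth 0.144 to 0.275 CPM depending on the library. A fold given as at least a value divides the observed mean by this floor, so it does not cover error in that mean. Such limits and intervals cover counting error only. Counts of ndr2 set the ndr2 libraries apart at sphere, with 664 to 1180, against 14 to 37 in CA-acvr1b* libraries and 0 to 15 in uninjected libraries. The CA-acvr1b* and uninjected ranges overlapped. At later stages ndr2 reached up to 954 counts in CA-acvr1b* libraries. No level of acvr1b is given here, so the CA-acvr1b* injection was not checked in this way. The explants are mixtures of cells, so fewer cells of a type and less RNA per cell cannot be told apart.

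In both injected conditions the summed Hox level was highest at the last stage, although not every member followed the sum. Summed over the 48 members, the level at the 2-somite stage was 203 CPM, 236 CPM and 154 CPM in ndr2 libraries A, B and C. It was 273 CPM, 83.2 CPM and 100 CPM in the CA-acvr1b* libraries, against 4.78 CPM, 4.54 CPM and 5.91 CPM in the uninjected libraries. All 6 injected libraries lay above all 3 uninjected ones, and CA-acvr1b* library A stood apart from the other two of its group. At 90% epiboly the sum was 2.47 to 3.04 CPM in ndr2 explants, 3.30 to 21.1 CPM in CA-acvr1b* explants and 2.48 to 3.53 CPM in uninjected explants. The ndr2 libraries thus overlapped the uninjected ones 2 hours before the 2-somite stage. At sphere the sums were 9.68 to 9.82 CPM with ndr2, 9.89 to 16.0 CPM with CA-acvr1b* and 9.30 to 16.4 CPM without injection, so a small early signal was present in every condition.

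**Figure D1:**
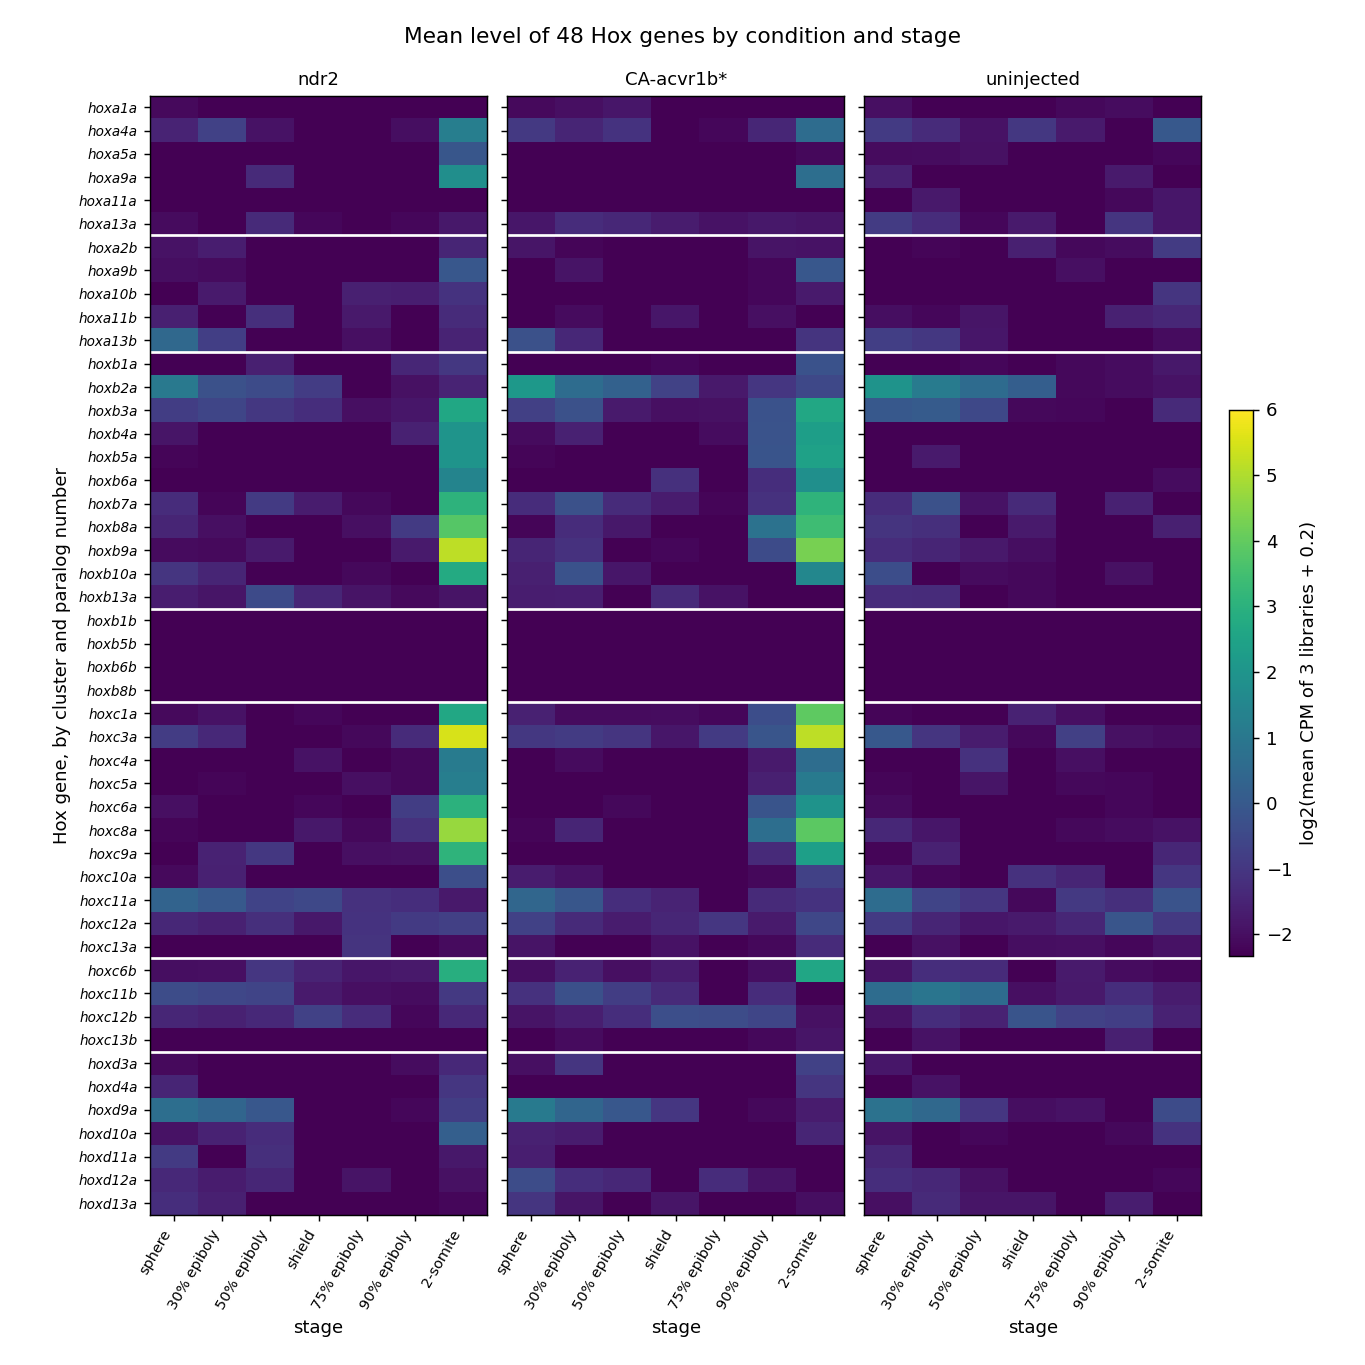
Mean level of each of the 48 Hox genes (rows, by cluster and paralog number, white lines between clusters) at the 7 stages (columns) in ndr2, CA-acvr1b* and uninjected explants, as log2 of the mean CPM of 3 libraries plus 0.2. Bright cells gather at 2-somite in the hoxba and hoxca clusters of both injected conditions, and the 4 hoxbb rows are listed at 0 throughout; colours compare conditions within a gene, not genes with each other.

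At the 2-somite stage 17 of the 28 tested Hox genes were higher in ndr2 than in uninjected explants and 0 were lower, by edgeR's quasi-likelihood test at an adjusted p under 0.05. Among all 19069 genes tested, 7.4% were called higher in that comparison and 4.84% lower. With CA-acvr1b*, 16 were higher and 0 lower than in uninjected explants, against 6.46% of all tested genes called higher and 2.68% lower. The 16 called with CA-acvr1b* were all among the 17 called with ndr2, and hoxa9a made the difference. Both comparisons share the uninjected libraries. Some members were tested largely because of their reads in injected 2-somite libraries. hoxa9a had 229 counts in all 63 libraries, of which 149 were in ndr2 and 58 in CA-acvr1b* libraries at this stage. Members at 0 in uninjected libraries could not be called lower. These shares, and those by cluster and paralog group below, are thus a description and no measure of enrichment over all tested genes. The 17 genes called with ndr2 were chosen by the comparison in these libraries, so their counts restate the calls. Those counts summed to 3534, 2644 and 2513 in the ndr2 libraries, against 7, 3 and 21 in the uninjected libraries. In the CA-acvr1b* libraries they summed to 3500, 1374 and 1245.

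Most calls lay in hoxba and hoxca, the 2 clusters with the most tested members. In hoxba, the cluster that runs from hoxb1a to hoxb13a, 8 of 9 tested members were higher in both injected conditions, and in hoxca 7 of 10 were. In hoxcb the single called gene was hoxc6b, of 3 tested. In hoxaa hoxa9a, 1 of 2 tested members, was called with ndr2 at an edgeR adjusted p of 0.0195 and missed the threshold with CA-acvr1b* at 0.0524. It was not called between the injections, and its ndr2 call was lost without any 1 of the uninjected libraries. No tested member of hoxab or hoxda, with 2 tested in each, was called at this stage. In hoxab, hoxa9b had an adjusted p of 0.0541 with ndr2 and 0.0689 with CA-acvr1b* in edgeR, and its uninjected libraries all held 0 counts.

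Ordered by paralog number, the calls ran from group 1 to group 10, with none in group 2. Of the tested members, those higher with ndr2 numbered 1 of 1 in group 1, 0 of 1 in group 2 and 2 of 2 in group 3. They numbered 2 of 3 in group 4, 2 of 2 in group 5, 3 of 3 in group 6 and 1 of 1 in group 7. In groups 8, 9 and 10 they numbered 2 of 2, 3 of 5 and 1 of 3. The table holds 4, 2, 3, 4, 4, 4, 1, 3, 5 and 4 members of groups 1 to 10, tested or not. None of the 5 members of group 11, the 3 of group 12 or the 6 of group 13 was called in either injected condition. The counts with CA-acvr1b* were the same in every group except group 9, where 2 were called. Of groups 11, 12 and 13, only 2, 2 and 1 members had enough reads to be tested.

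**Figure D2:**
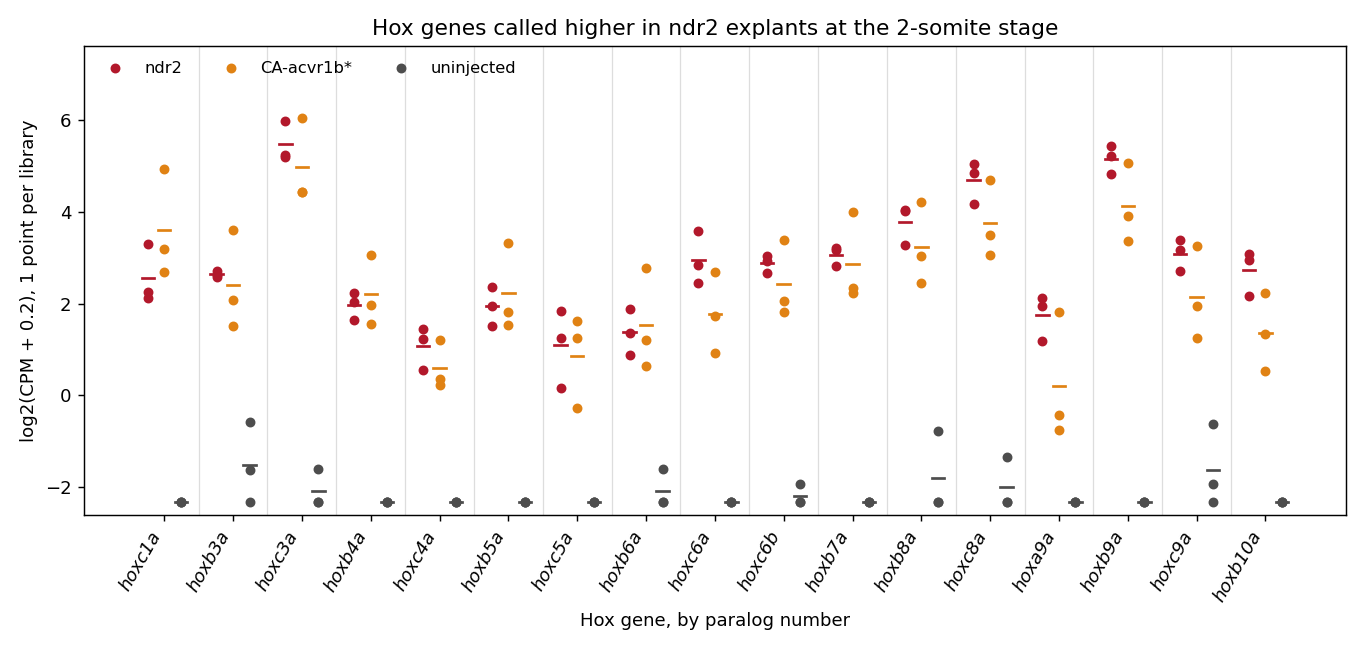
Levels of the 17 Hox genes called higher in ndr2 explants at the 2-somite stage, in paralog order, as log2(CPM + 0.2), with 1 point per library and a bar at the mean of the 3 logged values, for ndr2, CA-acvr1b* and uninjected explants. The genes were chosen by the ndr2 comparison in these libraries, so the separation of ndr2 from uninjected points restates the calls. Every injected library lies above every uninjected library of the same gene. The highest CA-acvr1b* point is library A for every gene but hoxc5a.

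hoxc1a is the called member of paralog group 1, the group that acts in the hindbrain. It had 9.54 CPM, 4.13 CPM and 4.58 CPM in ndr2 libraries A, B and C, and 30.2 CPM, 6.27 CPM and 8.87 CPM in CA-acvr1b* libraries, against 0 in all 3 uninjected libraries. The injected and uninjected libraries did not overlap. Against the floor, this was at least 31.3-fold higher with ndr2 (edgeR adjusted p 4.19e-05) and at least 77.7-fold higher with CA-acvr1b* (edgeR adjusted p 5.83e-06). Without CA-acvr1b* library A that bound was 38.9-fold.

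In group 3, hoxc3a had 37.2 CPM, 62.2 CPM and 36.2 CPM in ndr2 libraries and 65.5 CPM, 21.4 CPM and 21.3 CPM in CA-acvr1b* libraries, against 0, 0 and 0.130 CPM in uninjected libraries. The uninjected group held 2 counts in all. The ratio of summed counts scaled by depth was 995 with ndr2 (95% counting interval 275 to 8225) and 806 with CA-acvr1b* (223 to 6665), with edgeR adjusted p of 1.27e-07 and 2.52e-07. The CA-acvr1b* ratio was 495 without CA-acvr1b* library A. Both uninjected counts were in library C: without uninjected library B the ratios were 650 and 527, and without library C there was no uninjected count and the folds were at least 232 with ndr2 and at least 186 with CA-acvr1b*. In RefSeq the span of hoxc3a overlaps those of hoxc4a, hoxc5a, hoxc6a, hoxc8a and hoxc9a, and that of hoxb3a overlaps hoxb4a, hoxb5a and hoxb6a. How reads in such overlaps were assigned is not given in the sources used here, so the counts of these genes are uncertain relative to each other. hoxb3a itself was higher by 4.88 ± 1.40 log2 units (SE) with ndr2 (edgeR adjusted p 0.0132) and by 4.92 ± 1.40 with CA-acvr1b* (edgeR adjusted p 0.0155). Without CA-acvr1b* library A its change was 4.04 and the call was lost (edgeR adjusted p 0.0998), and both calls were lost without uninjected library B or C.

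In groups 4 and 5 the members with the largest fitted change were hoxb4a and hoxb5a, which act in the posterior hindbrain and anterior trunk. hoxb4a had 4.50 CPM, 3.88 CPM and 2.90 CPM in ndr2 libraries and 8.17 CPM, 2.73 CPM and 3.73 CPM in CA-acvr1b* libraries, against 0 in all uninjected libraries. This was at least 19.3-fold higher with ndr2 and at least 25.1-fold higher with CA-acvr1b*, with edgeR adjusted p of 0.00279 and 0.00242. DESeq2 did not call hoxb4a, with adjusted p of 0.348 and 0.377. hoxb5a had 4.94 CPM, 2.67 CPM and 3.65 CPM in ndr2 libraries and 9.74 CPM, 2.68 CPM and 3.35 CPM in CA-acvr1b* libraries, and 0 in all uninjected libraries. The bounds were at least 19.3-fold with ndr2 and at least 27.0-fold with CA-acvr1b* (edgeR adjusted p 0.00502 and 0.00415), and DESeq2 gave adjusted p of 0.651 and 0.674. For both genes CA-acvr1b* library A was the highest of the 6 injected libraries, and without it the CA-acvr1b* bounds were 16.6-fold for hoxb4a and 15.5-fold for hoxb5a. hoxc4a and hoxc5a, also called in both conditions, were at least 10.2-fold and at least 11.1-fold higher with ndr2. DESeq2 gave them no adjusted p. The call of hoxc4a was lost without any 1 of the uninjected libraries in both conditions, and without library A with CA-acvr1b*.

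Groups 6 to 8 are the trunk members. hoxc6a had 6.91 CPM, 11.7 CPM and 5.27 CPM in ndr2 libraries and 6.22 CPM, 1.71 CPM and 3.11 CPM in CA-acvr1b* libraries, against 0 in uninjected libraries. It was at least 40.9-fold higher with ndr2 and at least 18.9-fold higher with CA-acvr1b* (edgeR adjusted p 4.44e-05 and 2e-04), and the CA-acvr1b* bound was 12.4-fold without library A. Its co-orthologue hoxc6b had 1 count in the uninjected group, and the ratio of summed counts was 332 with ndr2 (95% counting interval 59.2 to 13163) and 259 with CA-acvr1b* (46.1 to 10282). The CA-acvr1b* ratio was 166 without CA-acvr1b* library A. The ratios were 217 and 169 without uninjected library B, and without library C, which held the 1 count, the folds were at least 37.0 and at least 29.9. hoxb6a, the third called member of group 6, was higher by 5.61 ± 1.73 log2 units (SE) with ndr2, with an edgeR adjusted p of 0.0372, the highest of the 17. That call was lost without any 1 of the ndr2 libraries, without uninjected library A or B, and in DESeq2 (adjusted p 0.769).

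hoxb7a is the only member of group 7 in the table. It had 9.00 CPM, 8.79 CPM and 6.84 CPM in ndr2 libraries and 15.6 CPM, 4.84 CPM and 4.51 CPM in CA-acvr1b* libraries, against 0 in uninjected libraries. It was at least 42.2-fold higher with ndr2 and at least 42.7-fold higher with CA-acvr1b* (edgeR adjusted p 9.85e-05 and 0.000103), and the CA-acvr1b* bound was 24.0-fold without library A. In group 8, hoxc8a had 28.5 CPM, 32.6 CPM and 17.8 CPM in ndr2 libraries and 25.5 CPM, 8.09 CPM and 11.0 CPM in CA-acvr1b* libraries, against 0, 0 and 0.195 CPM in uninjected libraries. The ratio of summed counts was 395 with ndr2 (95% counting interval 135 to 1919) and 220 with CA-acvr1b* (75.0 to 1070), with edgeR adjusted p of 3.44e-06 and 1.69e-05. The CA-acvr1b* ratio was 144 without CA-acvr1b* library A. The ratios were 258 and 144 without uninjected library B, and without library C, which held all 3 uninjected counts, the folds were at least 135 and at least 76.5. hoxb8a averaged 13.8 ± 3.74 CPM with ndr2 and 10.4 ± 6.80 CPM with CA-acvr1b*, against 0.130 ± 0.225 CPM without injection (SD, n = 3 each). Its log2 change was 6.65 ± 1.21 (SE) with ndr2 and 6.24 ± 1.20 with CA-acvr1b* (edgeR adjusted p 0.000124 and 0.000265), and the CA-acvr1b* change was 5.58 without CA-acvr1b* library A.

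Groups 9 and 10 belong to the posterior trunk and tail. hoxb9a had 36.6 CPM, 42.6 CPM and 28.1 CPM in ndr2 libraries and 33.3 CPM, 10.1 CPM and 14.9 CPM in CA-acvr1b* libraries, against 0 in uninjected libraries. It was at least 184-fold higher with ndr2 and at least 99.7-fold higher with CA-acvr1b* (edgeR adjusted p 8.22e-07 and 3.62e-06), and the CA-acvr1b* bound was 64.1-fold without library A. hoxc9a, of the same group, was higher by 5.54 log2 units with ndr2 and by 4.80 with CA-acvr1b* (95% intervals 2.39 to 8.69 and 1.74 to 7.87; edgeR adjusted p 0.0143 and 0.0391). DESeq2 did not call it (adjusted p 0.525 and 0.65), both calls were lost without uninjected library A or B, and that with CA-acvr1b* also without its library A or C. hoxb10a had 7.51 CPM, 8.18 CPM and 4.29 CPM in ndr2 libraries and 4.49 CPM, 2.34 CPM and 1.24 CPM in CA-acvr1b* libraries, against 0 in uninjected libraries. It was at least 34.2-fold higher with ndr2 and at least 13.8-fold higher with CA-acvr1b* (edgeR adjusted p 0.000379 and 0.00203), and the CA-acvr1b* bound was 9.20-fold without library A.

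The tested members that were not called at 2-somite include hoxb2a, hoxa4a, hoxd9a, hoxd10a, hoxa13b and the group 10 to 12 members of hoxca and hoxcb. The level of hoxc11a in every injected library lay below that in any uninjected one, with 0.0945 ± 0.0879 CPM with ndr2 and 0.261 ± 0.0779 CPM with CA-acvr1b*, against 0.666 ± 0.169 CPM without injection (SD, n = 3 each). Its edgeR adjusted p was 0.177 with ndr2 and 0.609 with CA-acvr1b*. hoxa4a had 2.18 ± 1.05 CPM with ndr2 and 1.35 ± 0.716 CPM with CA-acvr1b*, against 0.784 ± 0.479 CPM without injection (SD, n = 3 each), with edgeR adjusted p of 0.565 and 0.839. It was one of 2 Hox genes, with hoxd9a, that were higher at 2-somite than at 90% epiboly in uninjected explants.

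Nearly all calls were first made at the 2-somite stage. With ndr2, 0 Hox genes were called against uninjected explants at sphere, 30% epiboly, 50% epiboly, shield, 75% epiboly and 90% epiboly in edgeR, and DESeq2, which gave an adjusted p to 3 to 17 of the 28 members, also called 0 at each. The numbers with an unadjusted edgeR p under 0.05 at those stages were 0, 2, 2, 3, 1 and 2. Of all tested genes, those called higher made up 0.0787%, 0.0891%, 0.509%, 0.635%, 0.991% and 1.42%, and those called lower 0.157%, 0.136%, 0.949%, 0.435%, 0.823% and 1.19%. With CA-acvr1b*, 0 were called from sphere to 75% epiboly in edgeR and in DESeq2, which gave an adjusted p to 8 to 28 of them, with 1, 2, 1, 3 and 1 at an unadjusted edgeR p under 0.05. Of all tested genes, 0.0367%, 0.147%, 0.33%, 0.409% and 1.22% were called higher at those 5 stages, and 0.00524%, 0.0262%, 0.0262%, 0.0629% and 0.399% lower. At 90% epiboly 2 were called higher with CA-acvr1b*, hoxb8a and hoxc8a, against 1.93% of all tested genes called higher and 0.561% lower. There 11 had an unadjusted edgeR p under 0.05, all of them higher with CA-acvr1b*. The shares of all tested genes are for an adjusted p. Counts at an unadjusted p, here and below, therefore have no share beside them and are a description only.

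The 2 early calls are both of paralog group 8. Members of other groups also held reads in CA-acvr1b* libraries at 90% epiboly, without a call. Summed over 3 libraries, hoxb4a and hoxb5a each held 27 counts, against 0 in uninjected libraries. hoxc6a held 27 against 1, hoxb7a 10 against 5 and hoxb10a 0 against 3. The calls therefore do not set group 8 apart in onset. At 90% epiboly hoxb8a had 1.09 CPM, 2.58 CPM and 0.965 CPM in CA-acvr1b* libraries, from 16, 33 and 12 counts, and no count in any uninjected library. Against the floor this made a rise of at least 6.72-fold with CA-acvr1b*, at an edgeR adjusted p of 0.00777, and of at least 4.47-fold without CA-acvr1b* library B. In ndr2 libraries hoxb8a had 3, 5 and 6 counts, with a mean 1.45 times the floor. It was not called there against uninjected libraries (edgeR adjusted p 0.159). hoxc8a had 11, 39 and 5 counts in CA-acvr1b* libraries and 3, 5 and 2 in ndr2 libraries, against 0, 2 and 0 in uninjected libraries. The ratio of summed counts for CA-acvr1b* was 27.6 (95% counting interval 7.29 to 234; edgeR adjusted p 0.0398), and 11.8 without CA-acvr1b* library B. Without uninjected library B, which held both uninjected counts, the fold was at least 5.54. CA-acvr1b* library B held the highest count of both genes and of the Hox sum at this stage, 21.1 CPM, against 6.74 CPM and 3.30 CPM in libraries A and C. Without CA-acvr1b* library B, 1 of the 2 genes was called. The edgeR adjusted p of hoxc8a reached 0.361 without it, and the call was also lost without each of the uninjected libraries A, B and C in turn. That of hoxb8a was lost without uninjected library B, with an edgeR adjusted p of 0.0517, and neither gene was then called. Without uninjected library A or C, 1 was called.

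**Figure D3:**
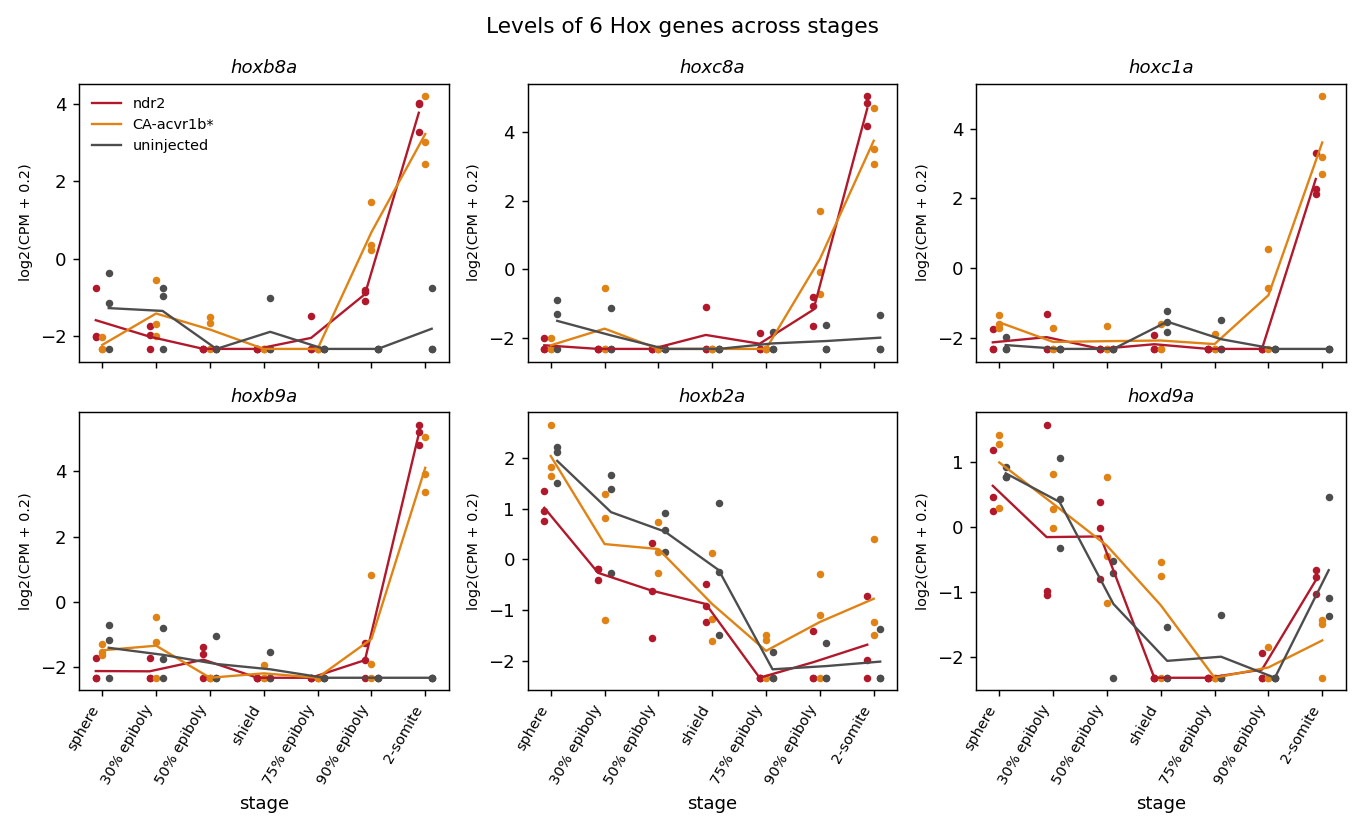
Levels of 6 Hox genes over the 7 stages as log2(CPM + 0.2), with 1 point per library and lines through the means of the logged values, for ndr2, CA-acvr1b* and uninjected explants. hoxb8a, hoxc8a, hoxc1a and hoxb9a are highest at 2-somite in both injected conditions. At 90% epiboly the CA-acvr1b* lines of hoxb8a and hoxc8a already lie above the uninjected lines. hoxb2a and hoxd9a hold counts at sphere in all 3 conditions and are lower at 90% epiboly. In uninjected explants hoxd9a is higher again at 2-somite.

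The step between 90% epiboly and 2-somite was tested within each condition. In ndr2 explants 17 Hox genes were higher at 2-somite than at 90% epiboly, against 4.32% of all tested genes called higher and 4.49% lower. In CA-acvr1b* explants 7 were, hoxb7a, hoxb9a, hoxb10a, hoxc1a, hoxc3a, hoxc8a and hoxc6b, against 2.45% of all tested genes called higher and 2.91% lower. In uninjected explants 2 were, hoxa4a and hoxd9a, against 3.82% of all tested genes called higher and 6.3% lower. None was lower in any of the 3 conditions, but members at 0 at 90% epiboly could not be called lower. Some members were tested largely because of their 2-somite reads. These counts are thus a description and no measure of enrichment over all tested genes. The change in the effect of the injection between the 2 stages passed the test for 2 genes with ndr2, hoxb7a and hoxb10a (0.734% of all tested genes were called higher and 0.0629% lower), and for 0 with CA-acvr1b* (0.142% higher and 0.00524% lower), where edgeR gave 5 at an unadjusted p under 0.05 and DESeq2 called 1. The ndr2 count of 2 fell to 1 without any 1 of the ndr2 90% epiboly libraries or without uninjected 2-somite library A. The same happened without uninjected 90% epiboly library B, with the only uninjected reads of hoxb10a there, or C, with those of hoxb7a. The CA-acvr1b* count became 1 without uninjected 90% epiboly library A. Within ndr2 explants, 10 were higher without 90% epiboly library C, and within CA-acvr1b* explants, 4 without 90% epiboly library C. In uninjected explants the 2 calls became 1 without 2-somite library A or C or 90% epiboly library A, and 0 without 90% epiboly library B or C.

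With detection set at 1 CPM or more in all 3 libraries, 17 Hox genes were detected in ndr2 explants and 14 in CA-acvr1b* explants at 2-somite, and 0 in uninjected explants. Between 30% and 90% epiboly, 0 members were detected in either injected condition and 1, hoxc11b at 30% epiboly, in uninjected explants. At 0.5 CPM, 18 members were detected at 2-somite with ndr2, 17 with CA-acvr1b* and 0 without injection. Between 30% and 90% epiboly that lower limit added hoxb2a at 30% epiboly with ndr2, and hoxd9a at 30%, hoxb2a at 50% and hoxb8a at 90% epiboly with CA-acvr1b*. In uninjected explants it gave hoxb2a, hoxc11b and hoxd9a at 30%, hoxb2a and hoxc11b at 50% and hoxc12a at 90% epiboly. At 2 CPM, 14 members were detected at 2-somite with ndr2 and 11 with CA-acvr1b*. The detected members come from the same libraries as the calls above and are largely the same genes at 2-somite. They are thus no separate evidence of onset. No share of all genes at these limits is given, so the counts are a description only.

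Several members had counts at sphere in all 3 conditions, and the 3 shown here are those also called lower at 90% epiboly in each. hoxc11a, which reached 0.5 CPM in all sphere libraries of every condition, was not called between those stages in any. hoxb2a, which acts in the hindbrain, had 44, 30 and 36 counts at sphere in ndr2 libraries and 115, 53 and 60 in CA-acvr1b* libraries, against 47, 91 and 80 in uninjected libraries. hoxd9a had 22, 20 and 43 counts in ndr2 libraries and 47, 35 and 21 in CA-acvr1b* libraries, against 27, 31 and 33 in uninjected libraries. hoxa13b had 20, 26 and 27 counts in ndr2 libraries and 20, 7 and 9 in CA-acvr1b* libraries, against 8, 0 and 14 in uninjected libraries. For hoxd9a the 3 conditions overlapped. For hoxb2a every ndr2 library lay below every CA-acvr1b* and uninjected library, and for hoxa13b every ndr2 library lay above the uninjected ones, and neither difference passed the test.

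These 3 genes were chosen as those called lower at 90% epiboly than at sphere in every condition, so their calls restate the choice. The comparison itself was added after the values had been seen. For hoxb2a the log2 change was -4.60 ± 1.18 with ndr2, -3.73 ± 1.03 with CA-acvr1b* and -6.06 ± 1.25 without injection (SE), with edgeR adjusted p of 0.000608, 0.00134 and 3.41e-05. In all, 6 members were lower with ndr2 (33.1% of all tested genes), 3 with CA-acvr1b* (32.9%) and 7 without injection (32.6%). Of 28 tested members, these counts were not a larger share than that of all tested genes. Higher at 90% epiboly than at sphere were 1 with ndr2 (hoxc6a), 6 with CA-acvr1b* (hoxb4a, hoxb5a, hoxb6a, hoxb8a, hoxc6a and hoxc8a) and 0 without injection, against 34.2%, 35% and 33.1% of all tested genes. The total of 7 calls with ndr2 became 4 without 90% epiboly library A and 3 without 90% epiboly library B or sphere library C. The 7 without injection became 4 without 90% epiboly library C. hoxb2a and hoxd9a kept their calls in all 3 conditions under each of the 16 alternatives, and hoxa13b lost its call in 1 of them with ndr2, 3 with CA-acvr1b* and 9 without injection.

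ndr2 and CA-acvr1b* explants were compared directly. No Hox gene was called between them at any stage in edgeR or in DESeq2, which gave an adjusted p to 8 to 28 of them. The numbers with an unadjusted edgeR p under 0.05 were 0 at sphere, 3 at 30% epiboly, 2 at 50% epiboly, 2 at shield, 1 at 75% epiboly, 6 at 90% epiboly and 1 at 2-somite. From sphere to 75% epiboly, 0.0472%, 0.105%, 0.231%, 0.0367% and 0.0315% of all tested genes were called higher with ndr2, and 0.00524%, 0.157%, 0.488%, 0.168% and 0.199% lower. Of all tested genes, 0.0367% were called higher and 0.336% lower with ndr2 at 90% epiboly, and 0.0524% higher and 0.309% lower at 2-somite. The 6 with an unadjusted p under 0.05 at 90% epiboly were all lower with ndr2, a count with no share of all tested genes beside it. The intervals were wide: at 2-somite the 95% interval of the ndr2 over CA-acvr1b* log2 change ran from -0.97 to 3.58 for hoxb10a, from -0.76 to 2.52 for hoxb9a and from -3.14 to 0.52 for hoxc1a.

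The difference between the injections was set against paralog number. Over the 16 members called in both injected conditions, the correlation of the ndr2 over CA-acvr1b* log2 change with paralog number was 0.728 (Pearson) and 0.671 (Spearman). The 16 points share the same 6 libraries and some share overlapping reads, so this is a description with no test. The change was positive for 10 members and negative for 6, with a median of 0.31. Leaving out each of the 6 libraries in turn gave Pearson values of 0.685 to 0.783. Without CA-acvr1b* library A, 15 were positive and 1 negative, with a median of 0.96.

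**Figure D4:**
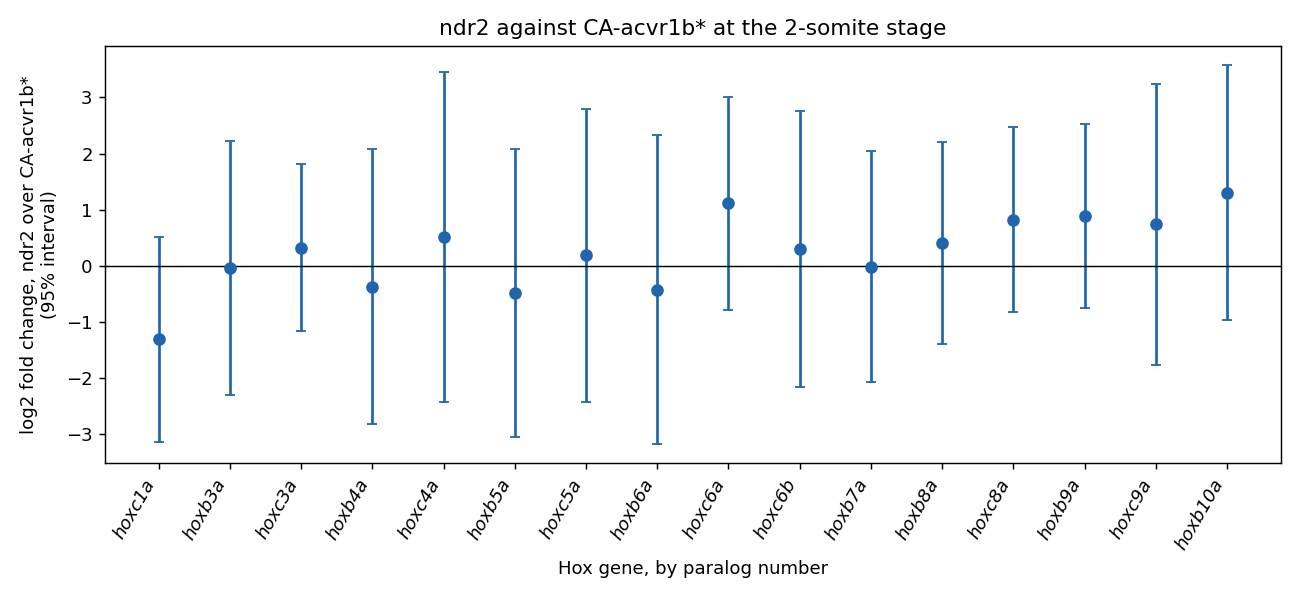
Log2 fold change of ndr2 over CA-acvr1b* at the 2-somite stage for the 16 Hox genes called in both injected conditions, in paralog order, with 95% intervals from the fit. hoxc1a has the lowest value and hoxb10a the highest, and every interval includes 0.

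The make-up of the Hox counts within each library was computed from the same counts in the same 6 libraries, so it restates this description and is no separate evidence. Paralogs 1 to 5 held 34.6%, 37.7% and 38.8% of the Hox counts in ndr2 libraries A, B and C, against 50.0%, 49.2% and 44.8% in CA-acvr1b* libraries. Paralogs 9 to 13 held 30.1%, 29.1% and 30.1% in ndr2 libraries, against 19.9%, 21.3% and 22.6% in CA-acvr1b* libraries. In these 2 ranges the groups did not overlap. Genes with many counts weigh most in such shares. Summed over the libraries of a condition, hoxc1a held 301 counts with ndr2 and 627 with CA-acvr1b*, and hoxb9a held 1647 and 812. A difference in a share thus need not hold for every member of its range. Paralogs 6 to 8 held 35.3%, 33.2% and 31.1% in ndr2 libraries, against 30.1%, 29.5% and 32.6% in CA-acvr1b* libraries, and there the groups overlapped. The ranges were chosen after the values had been seen, and no test was made.

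**Figure D5:**
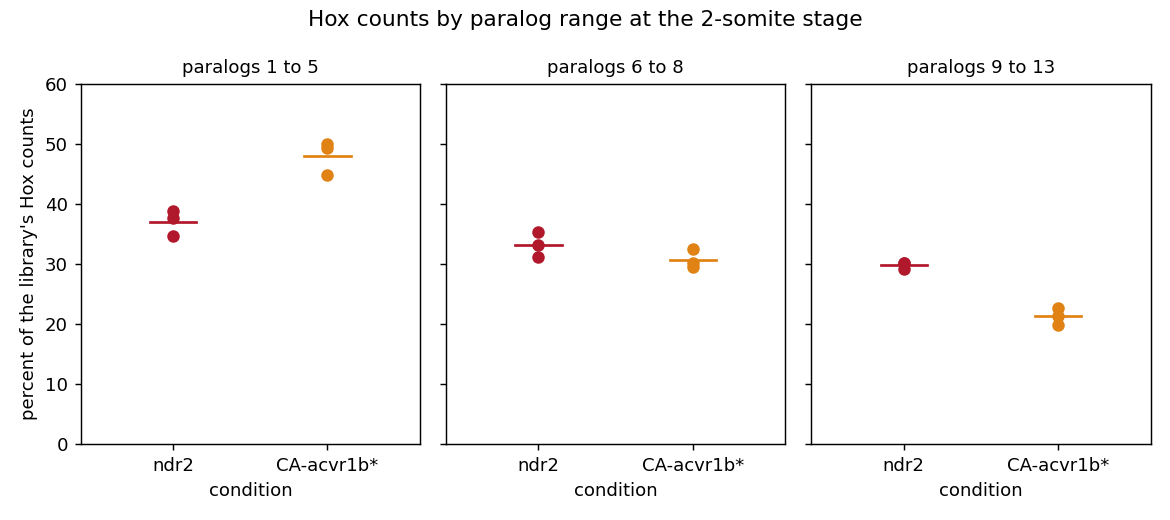
Percent of each library's Hox counts held by paralogs 1 to 5, 6 to 8 and 9 to 13 at the 2-somite stage, with 1 point per library and a bar at the mean of 3, for ndr2 and CA-acvr1b* explants. For paralogs 1 to 5 the ndr2 points, 34.6% to 38.8%, lie below the CA-acvr1b* points, for paralogs 6 to 8 the groups overlap, and for paralogs 9 to 13 the ndr2 points lie above.

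Other genes of the Hox pathway were read from lists of known regulators and cofactors at the 2-somite stage. Listed genes that could not be tested are left out of the counts below. Among all tested genes, 7.4% were called higher and 4.84% lower with ndr2, and 6.46% and 2.68% with CA-acvr1b*. Of the caudal genes, whose Cdx proteins activate posterior Hox genes, and the even-skipped genes, 3 of 3 tested were higher with ndr2 and 2 with CA-acvr1b*. eve1 averaged 40.0 ± 25.6 CPM with ndr2, against 0.659 ± 0.599 CPM in uninjected explants, and cdx4 averaged 293 ± 186 CPM with CA-acvr1b*, against 13.1 ± 9.45 CPM (SD, n = 3 each). Of 11 TALE genes, which encode cofactors that bind DNA together with Hox proteins, 3 were higher and 1 lower in each injected condition. meis2b averaged 146 ± 52.6 CPM with ndr2 and 65.8 ± 24.9 CPM with CA-acvr1b*, against 1.20 ± 0.937 CPM in uninjected explants (SD, n = 3 each). Of the listed posterior Wnt and Fgf ligands, 6 were tested, and all 6 were higher in each. fgf8a averaged 53.4 ± 8.91 CPM with ndr2, against 0.0433 ± 0.0750 CPM without injection, and fgf3 averaged 7.88 ± 4.29 CPM with CA-acvr1b*, against 0 in all uninjected libraries.

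Of 9 tested genes of retinoic acid synthesis, breakdown and reception, 4 were higher and 1 lower with ndr2. With CA-acvr1b*, 3 were higher and 1 lower. rdh10a, a retinol dehydrogenase that makes retinal, averaged 10.8 ± 6.10 CPM with ndr2 and 16.3 ± 7.12 CPM with CA-acvr1b*, against 0.417 ± 0.613 CPM without injection (SD, n = 3 each). aldh1a2, which makes retinoic acid from retinal, was listed at 0 in all 3 groups at this stage. Whether it was silent or missed in the counting cannot be read from these values. Of 4 tested hindbrain segmentation genes, 3 were higher with ndr2 and 2 with CA-acvr1b*. epha4a averaged 180 ± 71.1 CPM with ndr2 and 319 ± 193 CPM with CA-acvr1b*, against 7.19 ± 3.81 CPM without injection (SD, n = 3 each). None of these lists' genes was called between ndr2 and CA-acvr1b* at 2-somite.

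Markers of tissues moved with the injections at the same stage. All 7 tested tailbud and paraxial mesoderm markers were higher with ndr2 and 6 with CA-acvr1b*, and their summed level was 381 to 1165 CPM with ndr2 and 177 to 862 CPM with CA-acvr1b*, against 6.00 to 22.2 CPM without injection. Of the 4 tested notochord markers all 4 were higher in each injected condition, with sums of 226 to 474 CPM and 231 to 1004 CPM, against 3.23 to 5.78 CPM, and shha and shhb were at 0 in uninjected libraries. Of 3 tested neural plate markers all 3 were higher in each, with sums of 841 to 934 CPM and 700 to 1275 CPM, against 122 to 220 CPM. Anterior neural plate markers come from tissue that lacks Hox expression. Of 5 tested, 3 were higher with ndr2 and 4 with CA-acvr1b*. Their sums were 301 to 689 CPM and 552 to 850 CPM, against 153 to 207 CPM. Of 6 endoderm markers, 2 were higher and 2 lower with ndr2, and 3 higher and 1 lower with CA-acvr1b*, with sums of 126 to 143 CPM and 173 to 230 CPM, against 210 to 323 CPM. CA-acvr1b* library A, the highest of its group in Hox sum, was also the highest of its group in tailbud, notochord and neural plate sums. The part of these tissues in the Hox levels was not tested.

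Of 6 epidermis markers, 0 were higher and 3 lower with ndr2 and 4 lower with CA-acvr1b*, with sums of 8858 to 14657 CPM and 12047 to 13264 CPM, against 17122 to 24397 CPM in uninjected explants. Of the 6 enveloping layer, 3 lateral and ventral mesoderm, 3 yolk syncytial layer and 4 germ cell markers tested, 0 were called in either injected condition at 2-somite in edgeR.

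The 20 untested members were 4 without a single read and 16 with low counts. hoxb1b, hoxb5b, hoxb6b and hoxb8b, the whole hoxbb cluster, were listed at 0 in all 63 libraries, as were 4934 genes of the table in all. In the RefSeq gene order the 4 nearest genes on one side of that cluster, skap1, psme3, nbr1a and tmem106a, held 0, 1, 0 and 0 counts in all libraries together. On the other side ttll6 held 450 and srcap 627104. No level of hoxbb expression can be read from these values. The other 16 untested members had 11 to 124 counts summed over all libraries, and the highest count in a single library was 22. The highest count of hoxa5a at 2-somite was 20 with ndr2 and 1 with CA-acvr1b*, against 1 in uninjected explants. hoxd3a and hoxd4a reached 6 and 13 counts with ndr2 and 15 and 10 with CA-acvr1b*, against 0 in uninjected libraries. When the filter on low counts was dropped, no untested member was called at 2-somite.

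Genes beside the clusters were set against the Hox genes. Of 67 neighbours in RefSeq order, 53 were tested, and 5 were higher and 4 lower with ndr2 at 2-somite, and 2 were higher and 2 lower with CA-acvr1b*. These were 9.43% and 7.55% of the tested neighbours with ndr2, beside 7.4% and 4.84% of all tested genes, and 3.77% in each direction with CA-acvr1b*, beside 6.46% and 2.68%. The higher ones were snx10a and nfe2l3 in both, and eve1, cbx1a and chn1 with ndr2. eve1, next to hoxba, is also one of the even-skipped genes given above.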

How the data were processed

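RNA-seq counts of polyadenylated RNA were used for 63 libraries from 3 conditions at 7 stages. The values are raw read counts per gene as deposited. Per the submitters' processing notes and the file headers, reads were trimmed with Trim Galore, mapped with STAR to danRer11 (GRCz11) and counted with featureCounts; versions, strand use and the handling of overlapping genes are not given in the sources used here. Genes read in overlaps or on opposite strands therefore cannot be told apart.

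The analysis used R 4.3.3 with edgeR 4.0.16. Of 32057 genes, filterByExpr over the 21 groups kept 19069, at a minimum count of 10 and a minimum total of 15. Libraries were scaled with TMM factors, and CPM are counts divided by the TMM-scaled total of tested genes; 1 robust quasi-likelihood fit held all 63 libraries, with Benjamini-Hochberg adjustment over the genes tested and a threshold of 0.05. Every adjusted p comes from this test unless another is named. A fold against a group with no counts is the observed mean over a floor of 3 counts per library. It is called a bound for the empty group only. With 1 to 3 counts, the ratio of depth-scaled counts has an exact conditional 95% interval. DESeq2 1.42.0 was an alternative, as were other scalings and filters, a stricter threshold and a minimum fold, stage-only fits, replicate blocks and leaving out libraries. Folds and bounds without single libraries were computed from the counts, a choice made after seeing the data. The fit was tested on simulated counts.

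Library values are given for members called against uninjected explants before 2-somite and, in each paralog group, for the called member with the largest fitted ndr2 change at 2-somite; other members are given by counts and ranges. The members and lists were chosen with earlier results of these data known. Names came from the count table, and gene order and overlapping spans from RefSeq (GRCz12tu), whose coordinates are not printed since the counts use another build. Promoter sequence was not analysed here.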

Additional observations from a re-analysis of the deposited data

Results flagged for a closer look

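For 2 Hox genes the effect of ndr2 against uninjected explants differed between 2-somite and 90% epiboly in edgeR's interaction test. hoxb7a had 164, 102 and 118 counts at 2-somite and 0, 0 and 0 at 90% epiboly in ndr2 libraries, against 0, 0 and 0 at 2-somite and 0, 0 and 5 at 90% epiboly in uninjected libraries (adjusted p 0.00623). hoxb10a had 137, 95 and 74 counts at 2-somite and 0, 0 and 0 at 90% epiboly in ndr2 libraries, against 0, 0 and 0 at 2-somite and 0, 3 and 0 at 90% epiboly in uninjected libraries (adjusted p 0.0229). In both genes 2 of the 4 groups were empty, so the size of the difference is poorly determined. The call of hoxb7a was lost without uninjected 90% epiboly library C, and that of hoxb10a without library B, which held those few reads. That of hoxb10a was also lost without each of the ndr2 90% epiboly libraries in turn and without uninjected 2-somite library A. It was lost with the replicate block within stage as well. hoxb9a, with 1647 counts at 2-somite and 4 at 90% epiboly over the ndr2 libraries, did not pass. The 2 calls therefore do not set these genes apart from the other members in onset.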

How the results depend on the processing

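Of the 17 Hox genes called with ndr2 at 2-somite, 9 kept the call under each of 16 alternatives of the fit: hoxb7a, hoxb8a, hoxb9a, hoxb10a, hoxc1a, hoxc3a, hoxc6a, hoxc6b and hoxc8a. With CA-acvr1b*, 7 of 16 did, the same genes without hoxb10a and hoxc6b. No named member reversed. DESeq2 called 10 with ndr2 and 10 with CA-acvr1b* at 2-somite, gave 3 and 2 of the called members no adjusted p, and 4 and 4 missed its threshold. The cause was not tested for any of these changes. Leaving out single libraries or a replicate letter gave 11 to 17 with ndr2 and 7 to 18 with CA-acvr1b* at 2-somite, with 7 without replicate A at every stage. For CA-acvr1b* at 90% epiboly the count was 1 without the filter, in the stage-only fit, in DESeq2 and at an adjusted p under 0.01, and 0 to 3 when libraries were left out. The number called before 2-somite with CA-acvr1b* was 1 in DESeq2 and at 0.01. For the change of effect between 90% epiboly and 2-somite, ndr2 gave 1 with the block within stage and at 0.01, and 0 to 2 when libraries were left out, and CA-acvr1b* gave 1 in DESeq2 and 0 to 1. Between 90% epiboly and 2-somite, ndr2 gave 8 with the block within stage, 7 in DESeq2, which gave the other 10 no adjusted p, 11 at 0.01 and 6 to 16 when libraries were left out. CA-acvr1b* gave 3, 2, 4 and 1 to 8, and 15 in the stage-only fit. Uninjected explants gave 0, 1, 0 and 0 to 2, and 1 in the stage-only fit. Between sphere and 90% epiboly, ndr2 gave 3 with the block within stage, 3 at 0.01 and 3 to 7. CA-acvr1b* gave 5 with that block, 5 in the stage-only fit and 6 to 12. Uninjected explants gave 4 with that block, 3 at 0.01 and 2 to 10.

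The replicate letters showed little sign of pairing the libraries. Of 63 same-letter pairs across conditions, 12 had deviations correlated above 0.1 (range -0.321 to 0.349, median -0.012). Of 63 libraries, 18 correlated best with their own letter. With 3 libraries in a group, this check cannot exclude that a letter marks a shared origin. With the letter as a replicate block over all stages, 16 were called with ndr2 and 16 with CA-acvr1b* at 2-somite. At these depths, members under the floor cannot be told from members without expression.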
